A study of Drosophila melanogaster with 18 samples.

Results

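The genes examined encode the vacuolar H+-ATPase (V-ATPase) of Drosophila melanogaster, and were taken as every gene of the deposited count table whose FlyBase symbol starts with Vha. The table held 32 such genes among 17753 gene identifiers. RNA-seq of total RNA depleted of rRNA was made from DL1 cells, a Drosophila cell line grown in culture, and the study asked how over-expression of a subunit of the Integrator complex alters the transcriptome of its host cells. The 6 groups were parental DL1 cells, DL1 cells that stably carried a pMtnA FLAG-IntS6 puro plasmid, and DL1 cells that stably carried a pMtnA FLAG-IntS12 puro plasmid, each without copper or with 500 µM copper sulfate for the last 24 h of a 3 d culture at 25 °C. The MtnA promoter is a copper-inducible metallothionein promoter, so copper acted on all cells and also switched on the transgene in the lines that carried one. Each line was a population selected in puromycin after transfection. Each group had 3 libraries, named A, B and C. The labels do not say whether these came from separate cultures, so the p-values measure the spread between these libraries, which may be technical.

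The V-ATPase is a rotary proton pump that spends ATP to acidify endosomes, lysosomes and secretory vesicles, and in some epithelia the outside of the cell. Its cytosolic V1 sector, built of subunits A to H, splits ATP and turns a central stalk. Its membrane V0 sector, built of subunits a, c, c″, d and e, carries protons through a ring of proteolipids against the fixed subunit a. Fly genomes encode several paralogs of many subunits, of which one is usually expressed broadly and the rest in few tissues.

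The libraries held 13217764 to 18214756 counts, of which 70.2 to 73.4% lay on rRNA genes, so that 3.69 to 4.94 M counts per library lay on other genes. Levels are given as CPM, counts scaled to library sizes corrected by the trimmed mean of M-values (TMM). Induction followed the labels: with copper, IntS6 reached 2366 ± 174 CPM (SD, n = 3) where its plasmid was carried and 36.3 ± 1.45 CPM in parental cells, and IntS12 reached 92.9 ± 3.92 CPM where its plasmid was carried and 3.62 ± 0.317 CPM in parental cells. Without copper, IntS6 was at 71.4 CPM in its line and 28.0 CPM in parental cells, and IntS12 at 8.44 and 4.98 CPM. DL1 is a line with blood-cell features, and 8 of 9 plasmatocyte markers passed the filter on low counts, with summed levels of 377.7 to 506.1 CPM in parental libraries and 304.8 to 377.9 CPM in parental libraries with copper. In the IntS6 line these sums were 440.7 to 503.9 CPM without and 432.7 to 554.6 CPM with copper, and in the IntS12 line 414.2 to 518.9 and 340.2 to 388.8 CPM. Most of the sum was Ppn, at 303 CPM in parental cells without copper. There He was at 47.6, eater at 45.8, drpr at 40.8 and crq at 10.8 CPM. Pxn was at 2.98, Hml at 2.53 and NimC1 at 0.107 CPM. In the IntS6 line Hml was at 2.73 CPM without and 33.2 CPM with copper. None of 5 fat body markers passed that filter, and Lsp1alpha, Lsp2 and Yp1 were at 0 in every library. Of 5 crystal cell and lamellocyte markers 1 passed, PPO3, at 4.05 CPM in parental cells without copper. Of 4 neuron markers 1 passed, elav, at 17.8 CPM, and of 3 germ line markers 1, aub, at 32.6 CPM.

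Of the 32 Vha genes, 16 passed the filter on low counts and were tested, 10 had some counts but stayed under the filter, and 6 had none. The tested genes covered each subunit but C, whose only gene, Vha44, is not analysed here because its current identifier matched no row. They were 8 of 12 V1 genes, 7 of 18 V0 genes and 1 of 2 accessory genes. The 6 genes at 0 counts in all 18 libraries were Vha16-2 and Vha16-3 (subunit c), Vha100-3 and Vha100-5 (subunit a), VhaPPA1-2 (subunit c″) and VhaM9.7-d (subunit e). A count of 0 over all 272280952 counts allows a level of up to 0.011 CPM, which covers counting error only.

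The 10 genes under the filter were also paralogs of a tested gene. Their totals over all 18 libraries were 2 counts for VhaM9.7-a and Vha14-2, 3 for VhaAC39-2, 4 for VhaAC45RP, 9 for Vha16-4, 11 for Vha36-2, 13 for Vha16-5, 17 for Vha100-4 and 22 for Vha36-3. Vha68-3 had 66.5 counts in all and was the only one of these 10 with counts in all 18 libraries, at no more than 0.474 CPM. The tested gene with the fewest counts, VhaM9.7-c, had a total of 1277. Some silent or weak genes lie next to a strongly expressed paralog: Vha68-3 starts 178 bases from the end of Vha68-2 on the same strand of chromosome arm 2L, and Vha100-4 lies 517 bases from Vha100-2 on the same strand of 3R. VhaPPA1-1 and VhaPPA1-2 are 2052 bases apart on 3R, and Vha16-2 and Vha16-3, both at 0, are 985 bases apart on 3L. Reads shared between such paralogs could be split by the counting. Of the 18 values of each gene, 16 were not whole for Vha16-1, 13 for Vha68-2 and 10 for Vha100-2. Genes without a Vha paralog had such values too, with 15 for Vha55, 11 for Vha26 and 8 for VhaSFD. Whether reads shared between paralogs lie behind any of these values, and how many, cannot be read from the counts. Among the tested genes only Vha100-1 shares exon bases with another gene, 0.334% of them, with Alg13 on the other strand.

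**Figure D1:**
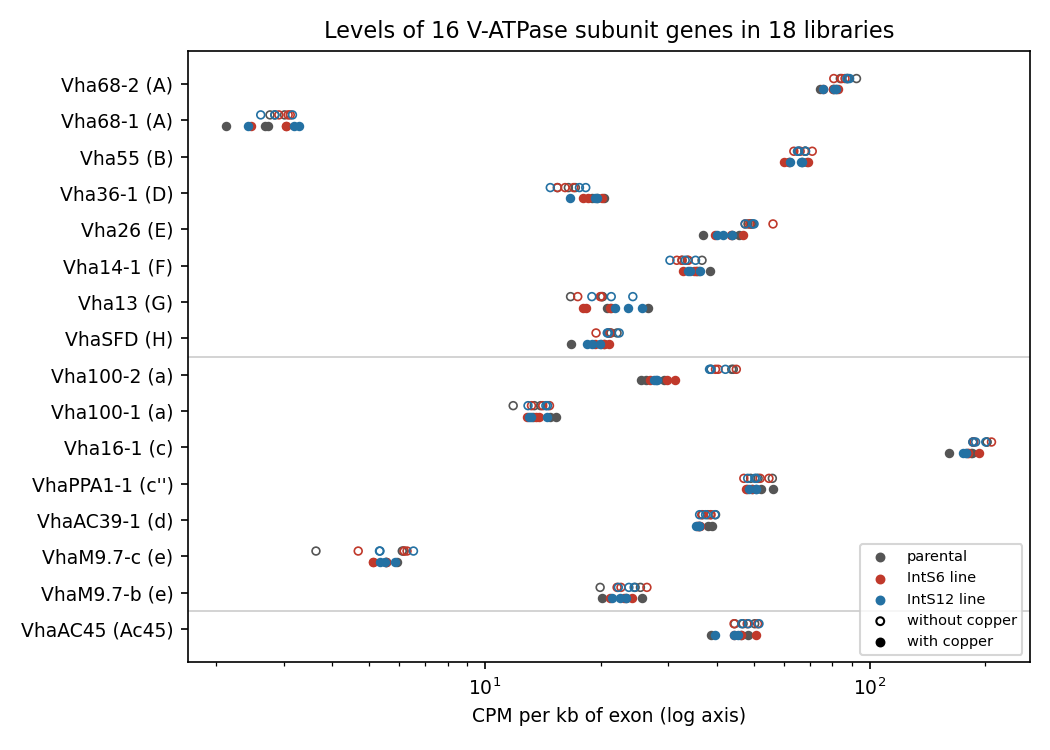
Level of the 16 tested Vha genes in CPM per kb of exon (log axis) in each of the 18 libraries, by group. Vha16-1 stood at 196 and Vha68-1 at 2.88 CPM per kb in parental cells without copper.

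Per kb of exon, transcript levels differed widely between subunits of the same complex. In parental cells without copper Vha16-1, the proteolipid c of which several copies form the rotor ring, was at 196 ± 9.30 CPM per kb (SD, n = 3), which was 68.3 times the level of the lowest tested gene. The next levels were those of Vha68-2, the catalytic subunit A, at 88.0 ± 4.26 CPM per kb, and Vha55, the nucleotide-binding subunit B, at 67.1 ± 1.46 CPM per kb. These 3 levels did not overlap between libraries.

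A middle group followed. VhaPPA1-1, the proteolipid c″, was at 52.1 ± 3.46, Vha26, subunit E of the peripheral stalk, at 48.9 ± 0.566, and VhaAC45, an accessory protein of the V0 sector, at 47.3 ± 2.86 CPM per kb, and each of these neighbours overlapped the next. Vha100-2, a subunit a, was at 42.2 ± 3.08, and VhaAC39-1, subunit d that joins the stalk to the proteolipid ring, at 38.2 ± 1.51 CPM per kb, and these also overlapped. Vha14-1, subunit F of the central stalk, was at 34.3 ± 2.14 CPM per kb, below all of these.

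The lower levels were those of VhaM9.7-b, the small membrane subunit e, at 23.3 ± 2.94, VhaSFD, the regulatory subunit H, at 21.4 ± 0.538, Vha13, subunit G of the peripheral stalk, at 19.0 ± 2.02, and Vha36-1, subunit D of the central stalk, at 16.4 ± 0.882 CPM per kb. VhaM9.7-b overlapped VhaSFD, and Vha13 overlapped Vha36-1. The second expressed paralogs came last, with Vha100-1 at 13.1 ± 1.10, VhaM9.7-c at 5.30 ± 1.44 and Vha68-1 at 2.88 ± 0.129 CPM per kb. Subunits A, a and e were thus the subunits with 2 tested paralogs, and in each the levels of both paralogs did not overlap. The spread between libraries of a group, as the median coefficient of variation over the 6 groups, ran from 3.52% for VhaAC39-1 to 10.5% for Vha68-1.

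Summed over the family, transcripts made up 0.529 to 0.66% of the counts outside rRNA genes in each library. Their summed level was 1750.0 ± 68.9 CPM (SD, n = 3) in parental cells, 1731.9 ± 90.9 CPM in the IntS6 line and 1728.4 ± 40.0 CPM in the IntS12 line. With copper these sums were 1589.8 ± 110.8, 1611.5 ± 65.0 and 1578.8 ± 20 CPM. The means were lower with copper in all 3 kinds of cells, and the sums were not tested. Libraries with and without copper overlapped in the IntS6 line only, at 1553.1 to 1681.5 CPM with and 1662.4 to 1834.7 CPM without copper. The libraries carried no stated spike-in, so every level is relative to the other RNA of its library, and fewer cells of a type and less RNA per cell cannot be told apart.

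With copper, Vha100-2, a subunit a of the V0 sector, fell in all 3 kinds of cells, and few other V-ATPase genes passed the test. In parental cells 4 of the 16 tested genes passed at an adjusted p under 0.05 (edgeR's quasi-likelihood test, Benjamini-Hochberg adjustment over all 8174 genes tested): Vha100-2, Vha26 and Vha68-2 fell and Vha36-1 rose. Copper itself moved much of the transcriptome in these cells, with 38.6% of all tested genes called, 19.3% higher and 19.4% lower, so neither the share of 25% among the Vha genes nor the number of them that fell was larger than the background. Among IntS6-line cells 2 Vha genes fell and none rose, while 42.6% of all tested genes were called, 23.2% higher and 19.3% lower. Among IntS12-line cells 2 fell and none rose, while 36.8% of all tested genes were called, 19.2% higher and 17.6% lower. In each line the 2 genes were Vha100-2 and Vha26. The median log2 fold change of the 16 genes was -0.02 in parental cells, -0.07 in the IntS6 line and -0.05 in the IntS12 line, against 0.00, -0.01 and 0.01 over all genes tested. The 3 copper comparisons share no library, and 11 of the 16 genes (68.8%) had the same direction in all 3, against 72.7% of all genes tested.

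**Figure D2:**
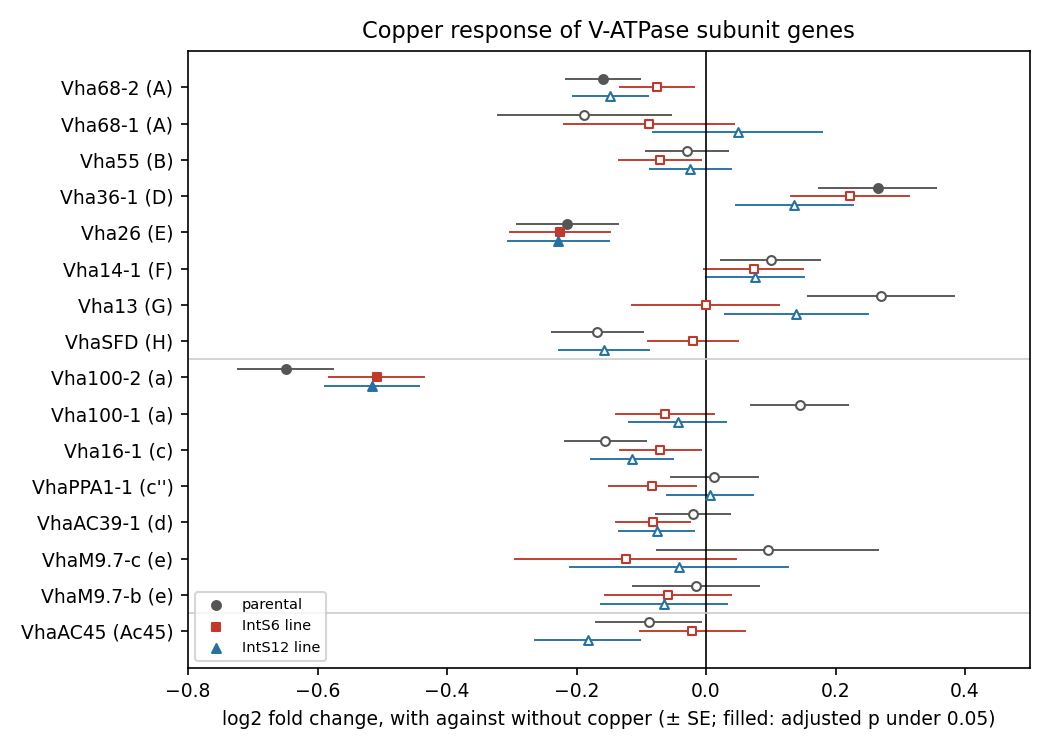
Log2 fold change with copper of the 16 tested Vha genes (x axis) in parental, IntS6-line and IntS12-line cells. Points are estimates and lines their standard errors (± SE), and filled points passed at an adjusted p under 0.05. Vha100-2 lies farthest to the left in all 3, at -0.65, -0.51 and -0.52.

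Among V1 genes the called differences were small. Vha26 (FBgn0283535, chromosome 3R, bases 5591763 to 5595356, plus strand, genome assembly BDGP6) was at 144.0, 141.3 and 144.3 CPM in parental libraries A, B and C, and at 134.0, 128.3 and 107.7 CPM with copper. It was at 164.1, 138.9 and 142.8 CPM in the IntS6 line and 137.2, 127.5 and 116.3 CPM with copper, and the IntS12 line had 146.5, 138.9 and 145.3 CPM, or 117.6, 128.5 and 121.8 CPM with copper. In each kind of cells every library with copper was below every library without it. The log2 fold change was -0.21 ± 0.08 (SE, 1.16-fold, adjusted p = 0.0367) in parental cells, -0.23 ± 0.08 (adjusted p = 0.0254) in the IntS6 line and -0.23 ± 0.08 (adjusted p = 0.0277) in the IntS12 line.

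The Vha26 calls depended on the scaling and on single libraries, while the log2 fold change stayed at -0.28 to -0.12 in parental cells, -0.29 to -0.15 in the IntS6 line and -0.26 to -0.20 in the IntS12 line over the alternatives. With library sizes alone the adjusted p was 0.12, 0.13 and 0.0872 in these cells, and in a fit of the compared groups it was 0.106 in parental cells. Among parental libraries the adjusted p was 0.243 without copper-treated library C, which was the lowest, 0.0539 without copper-treated library B, and 0.0866, 0.0692 and 0.0893 without untreated library A, B or C. For the IntS6 line it was 0.176 without untreated library A, and 0.0608 and 0.152 without copper-treated library B or C. In the IntS12 line it was 0.0866 and 0.083 without untreated library A or C, and 0.104 and 0.0836 without copper-treated library A or C.

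Vha68-2 (FBgn0263598, chromosome 2L, bases 12974322 to 12978607, plus strand) was at 242.1, 255.0 and 231.5 CPM in parental libraries A, B and C and at 221.4, 226.2 and 205.0 CPM with copper. The groups did not overlap, and the log2 fold change was -0.16 ± 0.06 (1.12-fold, adjusted p = 0.0375). This call was lost without any of 5 libraries, with an adjusted p of 0.0843 and 0.175 without untreated library A or B and of 0.0673, 0.052 and 0.193 without copper-treated library A, B or C. It was also lost with library sizes alone (0.128), with no filter on low counts (0.15) and in a fit of the compared groups (0.156). In the IntS12 line it was at 241.3, 240.8 and 244.7 CPM without and 208.3, 225.4 and 222.3 CPM with copper. The log2 fold change of -0.15 ± 0.06 did not pass there (adjusted p = 0.0545). It passed in DESeq2 in place of edgeR (0.0467), with rRNA genes left out (0.0339) and with the replicate letter as a block (0.0413). In the IntS6 line the value was -0.08 ± 0.06 (adjusted p = 0.329). Its lower paralog Vha68-1 was at -0.19 ± 0.14 in parental cells (adjusted p = 0.29).

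Vha36-1 (FBgn0022097, chromosome 2R, bases 15541435 to 15542498, plus strand) rose in parental cells. It was at 16.4, 17.5 and 18.3 CPM in parental libraries A, B and C and at 20.2, 21.7 and 20.8 CPM with copper, with no overlap between the groups. The log2 fold change was 0.26 ± 0.09 (1.20-fold, adjusted p = 0.0268), with an adjusted p of 0.103 and 0.0545 without untreated library A or B and of 0.0864 without copper-treated library B. It was 0.0517 with no filter on low counts and 0.0553 in a fit of the compared groups. Its levels in the IntS6 line were 17.2, 18.1 and 16.4 CPM without and 19.2, 21.5 and 19.8 CPM with copper, again without overlap, at a log2 fold change of 0.22 ± 0.09 (adjusted p = 0.0588, and 0.0371 with library sizes alone). In the IntS12 line the value was 0.14 ± 0.09 (adjusted p = 0.265).

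The other V1 genes did not pass in any kind of cells. The estimate of Vha13 was as large as that of Vha36-1, also with no overlap between the groups. Vha13 was at 19.0, 19.1 and 15.8 CPM in parental libraries and at 20.04, 25.1 and 19.6 CPM with copper, a log2 fold change of 0.27 ± 0.11 (adjusted p = 0.0652, 0.0412 with no filter on low counts, and 0.0334 without copper-treated library C). VhaSFD was at 62.4, 59.5 and 60.2 CPM and at 57.6, 56.8 and 47.4 CPM with copper, a log2 fold change of -0.17 ± 0.07 (adjusted p = 0.0686, 0.0335 without copper-treated library A, and 0.041 with the replicate letter as a block). Copper-treated parental library C was the lowest of the 6 for VhaSFD, as it was for Vha26, Vha68-2, Vha16-1, Vha100-2, Vha55, VhaAC45, Vha68-1 and VhaAC39-1. It was not the lowest for the other tested Vha genes. Its summed Vha level was 1462.1 CPM, against 1660.7 and 1646.5 CPM in copper-treated parental libraries A and B. In parental cells Vha55 was at -0.03 ± 0.06 (adjusted p = 0.755) and Vha14-1 at 0.10 ± 0.08 (adjusted p = 0.331).

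In the V0 sector the subunit a gene Vha100-2 (FBgn0028670, chromosome 3R, bases 18390323 to 18399169, minus strand) showed the largest difference of the family. It was at 141.2, 142.5 and 124.7 CPM in parental libraries A, B and C, and at 94.0, 84.6 and 81.9 CPM with copper. It was at 145.1, 130.1 and 128.1 CPM in the IntS6 line and 100.8, 95.9 and 86.5 CPM with copper, and the IntS12 line had 135.9, 124.6 and 123.6 CPM, or 89.9, 90.1 and 88.7 CPM with copper. All 9 libraries without copper were above all 9 with it. Vha100-2 fell 1.57-fold in parental cells (log2 fold change -0.65 ± 0.07, 95% limits -0.80 to -0.49, adjusted p = 6.04e-07). In the IntS6 line it fell 1.42-fold (-0.51 ± 0.07, adjusted p = 9.31e-06) and in the IntS12 line 1.43-fold (-0.52 ± 0.07, adjusted p = 1.22e-05). This call held in all 12 alternatives run in each of the 3 comparisons, each left-out library included. Per kb of exon its level was 42.2 CPM in parental cells without copper and 26.9 ± 1.98 CPM with copper. In the order of the 16 levels it stood at place 7 in each kind of cells without copper and at place 9 in each with copper.

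The other expressed subunit a gene, Vha100-1 (FBgn0028671, chromosome 3R, bases 29131193 to 29137980, plus strand), which is known in flies for its role in neurons, did not pass in any copper comparison. It was at 44.2, 45.9 and 39.0 CPM in parental libraries and at 50.3, 48.6 and 43.9 CPM with copper, with overlap between the groups. The log2 fold change was 0.14 ± 0.08 in parental cells (adjusted p = 0.149), -0.06 ± 0.08 in the IntS6 line (adjusted p = 0.548) and -0.04 ± 0.08 in the IntS12 line (adjusted p = 0.699). The gene encodes an alternative subunit for the same place in the complex, so its share of the subunit a transcripts was computed per kb of exon.

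Vha100-1 made up 24.9 ± 1.25% of the summed Vha100-1 and Vha100-2 level in the 9 libraries without copper, from 23.4 to 27.3%, and 33.1 ± 2.08% in the 9 with copper, from 29.2 to 36.0%. The groups did not overlap. The mean difference was 8.12 percentage points, made up of 11.3 points in parental cells, 6.31 in the IntS6 line and 6.76 in the IntS12 line. An exact two-sided permutation test that exchanged the copper label within each kind of cells gave p = 0.00025, the smallest its 8000 arrangements allow, and 0.00075 after adjustment over the 3 paralog pairs. The pairs were compared after the values of their genes had been seen, and the share is computed from the same counts as the values of both genes above. For the subunit A pair the share of Vha68-1 was 3.28 ± 0.253% without and 3.39 ± 0.486% with copper (adjusted p = 0.801). For the subunit e pair the share of VhaM9.7-c was 19.2 ± 3.12% and 19.5 ± 1.53% (adjusted p = 0.815).

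**Figure D3:**
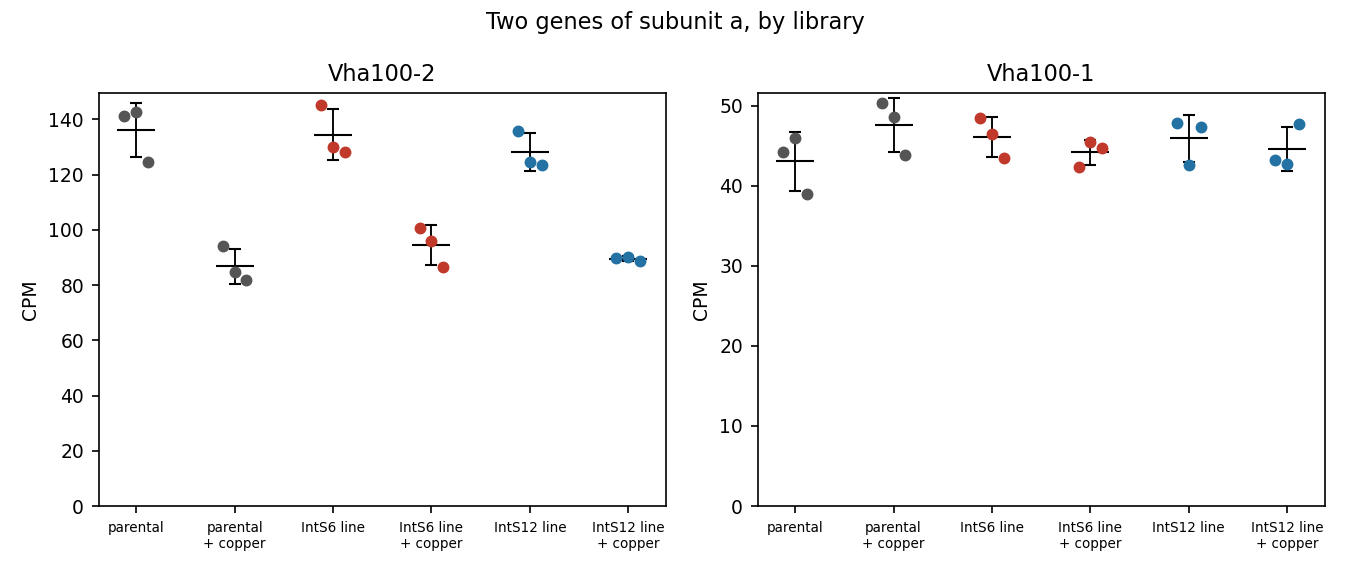
Level of the subunit a paralogs Vha100-2 (left) and Vha100-1 (right) in CPM in each library, by group, with the group mean and SD. The share of Vha100-1 in their sum per kb of exon is not drawn. It lies between 23.4 and 27.3% in every library without copper and between 29.2 and 36.0% in every library with it.

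The remaining V0 and accessory genes showed no called difference. Vha16-1 (FBgn0262736, chromosome 2R, bases 6625242 to 6633090, minus strand) was at 621.0, 620.6 and 571.2 CPM in parental libraries and 569.1, 562.9 and 495.5 CPM with copper, without overlap, a log2 fold change of -0.16 ± 0.06. Its adjusted p was 0.0612, 0.0477 with rRNA genes left out, 0.0494 without copper-treated library A, 0.0432 without untreated library C, and 0.0218 with the replicate letter as a block. In parental cells VhaAC39-1 was at -0.02 ± 0.06 (adjusted p = 0.821), VhaPPA1-1 at 0.01 ± 0.07 (adjusted p = 0.905), VhaM9.7-b at -0.02 ± 0.10 (adjusted p = 0.924) and VhaM9.7-c at 0.10 ± 0.17 (adjusted p = 0.70). The accessory gene VhaAC45 was at -0.09 ± 0.08 in parental cells (adjusted p = 0.424), -0.02 ± 0.08 in the IntS6 line (adjusted p = 0.867) and -0.18 ± 0.08 in the IntS12 line (adjusted p = 0.0889). ATP6AP2, a further accessory protein whose symbol lies outside the Vha rule, was at 92.6 CPM in parental cells and differed by -0.04 ± 0.07 with copper (adjusted p = 0.678).

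The number of Vha genes called with copper was small enough for 1 library to move it. In parental cells it was 4, and 1 without untreated library A or B or copper-treated library B. For the IntS6 line it was 2, and 1 without untreated library A or copper-treated library B or C. In the IntS12 line it was 2, and 1 without untreated library A or C or copper-treated library A or C. With the replicate letter as a block it was 6 in parental cells, 1 higher and 5 lower. The share of all tested genes called with that block is not given here, so this count has no background beside it. Plasmatocyte markers also moved with copper: of 8 tested, 5 rose and 2 fell in parental cells, 6 rose and 2 fell in the IntS6 line, and 4 rose and 2 fell in the IntS12 line. Over all tested genes 38.6%, 42.6% and 36.8% were called in these comparisons. Markers of other cell types moved too: PPO3 rose and aub fell in each of them. The estimate of elav was positive in each, but it was called in the IntS6 line only. It was 0.24 ± 0.13 in parental cells (adjusted p = 0.152), 0.34 ± 0.13 in the IntS6 line (0.0442) and 0.29 ± 0.13 in the IntS12 line (0.0887). The part of these markers in the V-ATPase values was not tested.

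No V-ATPase gene passed the test between either transgene line and parental cells. Without copper none of the 16 genes was called in the IntS6 line (0.208% of all tested genes called) or the IntS12 line (0.0367% called). Log2 fold changes lay between -0.07 and 0.11 in the IntS6 line, with 95% limits within -0.25 and 0.47, and between -0.09 and 0.17 in the IntS12 line, with limits within -0.28 and 0.47. Both edgeR and DESeq2 called 0 genes, and no member was under an unadjusted p of 0.05. Vha100-2 itself differed by -0.02 ± 0.07 in the IntS6 line (95% limits -0.17 to 0.13) and by -0.09 ± 0.07 in the IntS12 line (-0.24 to 0.06).

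With copper in both groups, when the transgenes were induced, again none of the 16 genes was called. With IntS6 induced, 8.91% of all tested genes were called, 7.45% higher and 1.46% lower, and the Vha genes lay between -0.27 and 0.18, with limits within -0.50 and 0.46. The lowest was Vha13, at 18.1 ± 1.59 CPM against 21.6 ± 3.03 CPM (adjusted p = 0.17) and with overlap between the groups, the 1 member under an unadjusted p of 0.05. In the IntS12 line 0.0245% of all tested genes were called, and the Vha genes lay between -0.09 and 0.24, with limits within -0.38 and 0.51 and no member under an unadjusted p of 0.05. DESeq2 also called 0 members in both. For Vha100-2 the log2 fold changes were 0.12 ± 0.08 (95% limits -0.03 to 0.28, adjusted p = 0.381) with IntS6 induced and 0.04 ± 0.08 (-0.11 to 0.20) with IntS12 induced.

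**Figure D4:**
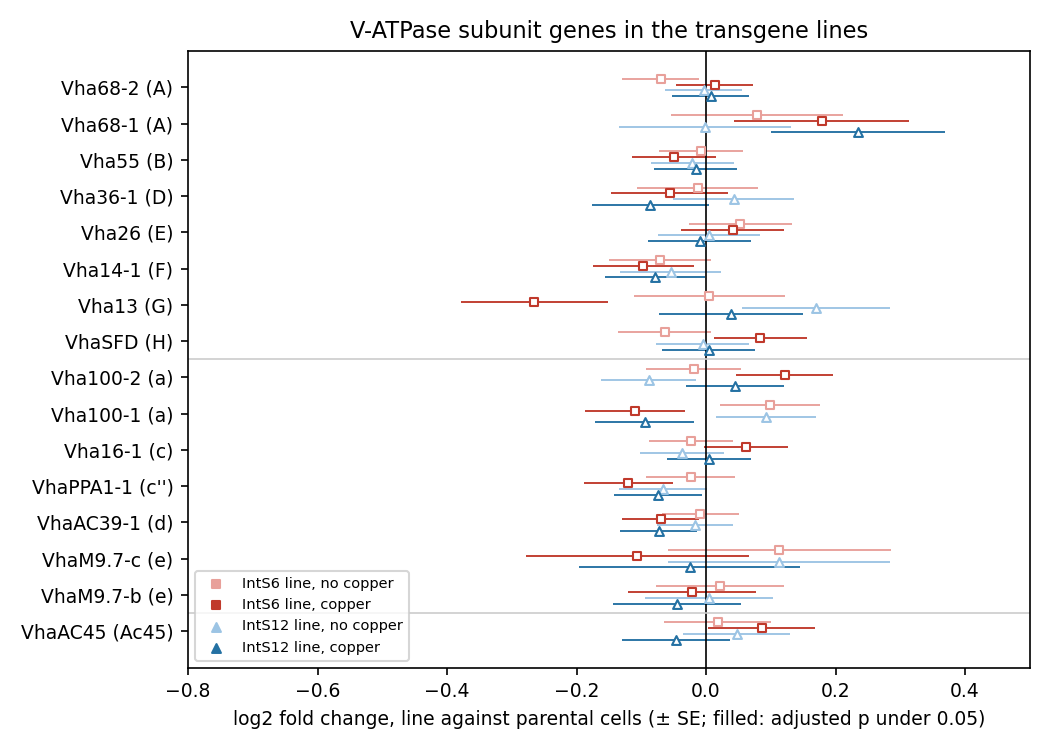
Log2 fold change of the 16 tested Vha genes in the IntS6 and IntS12 lines against parental cells, without and with copper. Lines are standard errors (± SE), not 95% limits. No gene passed, and estimates lie between -0.27 and 0.24.

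The copper response itself was compared between the lines and parental cells with an interaction term, which shares its libraries with the comparisons above. No Vha gene was called in the IntS6 line (1.16% of all tested genes called) or the IntS12 line (0.0122% called), by edgeR or by DESeq2, and no member was under an unadjusted p of 0.05. For Vha100-2 the response in the IntS6 line minus that in parental cells was 0.14 ± 0.11 on the log2 scale (95% limits -0.08 to 0.36, adjusted p = 0.723), and in the IntS12 line 0.13 ± 0.11 (-0.09 to 0.35, adjusted p = 0.999). The smaller fall of Vha100-2 in the lines was therefore not resolved from the spread. For Vha26 the differences were -0.01 in both lines, with limits of -0.24 to 0.22 and -0.25 to 0.22. For Vha100-1 they were -0.21 ± 0.11 (-0.43 to 0.02, adjusted p = 0.542) and -0.19 ± 0.11 (-0.41 to 0.04, adjusted p = 0.999).

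The V-ATPase is assembled by the RAVE complex, and at the lysosome it works with the Rag GTPases and the Ragulator complex in the activation of mTor by amino acids. Of 16 tested genes of V-ATPase regulation and lysosomal nutrient sensing, 1 rose and 3 fell with copper in parental cells, a median log2 fold change of -0.05. Over all tested genes 19.3% rose and 19.4% fell there, so these counts were no larger than the background. RagA-B, a Rag GTPase, rose by 0.40 ± 0.15 (adjusted p = 0.0409). Rbcn-3B, a RAVE component, fell by 0.29 ± 0.07 (adjusted p = 0.00367), raptor, a partner of mTor, fell by 0.30 ± 0.08 (adjusted p = 0.00481), and mTor fell by 0.18 ± 0.06 (adjusted p = 0.0259). In the IntS6 line Gnptab rose by 0.55 ± 0.21 (adjusted p = 0.0403) while gig, the fly TSC2, and mTor fell, by 0.26 ± 0.07 (adjusted p = 0.00286) and 0.16 ± 0.06 (adjusted p = 0.0372). In the IntS12 line raptor, mTor and Rbcn-3B fell, by 0.30 ± 0.08, 0.23 ± 0.06 and 0.28 ± 0.07 (adjusted p = 0.00439, 0.00457 and 0.00539). Of all tested genes 23.2% rose and 19.3% fell in the IntS6 line, and 19.2% and 17.6% in the IntS12 line. The count in parental cells was 2 without untreated library A, B or C or copper-treated library A. In the IntS6 line it was 1 without untreated library A or C or copper-treated library B, and in the IntS12 line 5 without copper-treated library B.

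Among genes for proteins that work in the lysosome, most of those called with copper rose. Of 18 tested lysosomal genes, 9 rose and 2 fell with copper in parental cells (median 0.30), 8 rose and 1 fell in the IntS6 line (median 0.19), and 8 rose and none fell in the IntS12 line (median 0.26). Over all tested genes 19.3% rose and 19.4% fell in parental cells, 23.2% and 19.3% in the IntS6 line, and 19.2% and 17.6% in the IntS12 line. In parental cells the protease gene cathD rose by 0.69 ± 0.08 (adjusted p = 6.13e-07), the hexosaminidase gene Hexo2 by 0.59 ± 0.09 (adjusted p = 2.35e-05), the sterol-binding Npc2a by 1.13 ± 0.20 (adjusted p = 0.000105) and spin, a lysosomal transporter, by 0.37 ± 0.07 (adjusted p = 0.000133). Under the alternatives run the number called was 9 to 12 in parental cells, against 11, 6 to 12 in the IntS6 line, against 9, and 8 to 10 in the IntS12 line, against 8. The difference between this list and the Vha genes was not tested. The lists were described only by these counts and medians.

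The mitochondrial ATP synthase is the other rotary ATPase of the cell. Of its 13 tested genes none rose and 5 fell with copper in parental cells (median -0.13), among them blw, its alpha subunit, by 0.22 ± 0.06 (adjusted p = 0.00353), and ATPsynO by 0.33 ± 0.09 (adjusted p = 0.00661). None rose and 11 fell in the IntS6 line (median -0.30), and none rose and 4 fell in the IntS12 line (median -0.07). The share of all tested genes called was 38.6%, 42.6% and 36.8% in these comparisons, with 19.4%, 19.3% and 17.6% of all tested genes called lower. In the IntS6 line with copper against parental cells with copper, where no Vha gene and 8.91% of all tested genes were called (1.46% lower), 8 ATP synthase genes fell (median -0.26), with blw at -0.26 (adjusted p = 0.00327). That last count was 5 without copper-treated parental library A or copper-treated IntS6 library B, 3 without copper-treated IntS6 library A or C, and 2 without copper-treated parental library C. In parental cells the count was 3 without untreated library B or copper-treated library A, 2 without untreated library C and 1 without copper-treated library B. In the IntS12 line it was 1 without copper-treated library A or untreated library C, and 2 without untreated library B or copper-treated library C.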

How the data were processed

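The authors deposited 1 table of estimated counts per gene for 18 libraries, of which 13.4% of values were not whole. Per the submitters' processing notes the tools included Trimmomatic 0.39 and featureCounts and the builds dm6 and BDGP6. The aligner, the annotation and the counting's strand setting are unnamed in the sources used, while the labels describe a strand-specific kit. Estimated counts were rounded. All 18 libraries were fitted together as 6 group means in edgeR 4.0.16 (R 4.3.3) with TMM scaling and filterByExpr, and 9 comparisons were tested by the quasi-likelihood F-test with Benjamini-Hochberg adjustment over all 8174 genes tested, called at an adjusted p under 0.05. The fit had 12 residual and 9.62 prior degrees of freedom, and a biological coefficient of variation of 8.02%. A standard error is the size of a log2 fold change over the root of its F statistic, and 95% limits use the t distribution. The code was tested on simulated data.

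Symbols were matched by FlyBase identifier to Ensembl's BDGP6 annotation, which named 17626 of 17753 identifiers. Exon length is the union of annotated exons. No promoter or protein sequence was analysed here. Members and lists were chosen with earlier results of these data known. The Vha genes called are named with log2 fold changes, per-library values are given for the 8 with the smallest p in parental cells with copper and the 3 with the smallest in other comparisons with a call, and other lists name up to 4 called genes each. No replicate pair agreed within counting noise, so none were merged. Same-lettered libraries deviated together most in 2 comparisons, copper in parental cells (correlations 0.122, 0.114 and 0.278) and the IntS6 line against parental cells with copper (0.213, 0.244 and 0.136). The letters pair the samples there by this check alone, since no label states a shared batch. Correlations were also positive for each letter with copper in the IntS6 line (0.109, 0.0854 and 0.0929) and in the IntS12 line (0.0291, 0.0861 and 0.0234). The same held for the IntS6 line against parental cells without copper (0.138, 0.0844 and 0.115). Signs were mixed for the IntS12 line against parental cells. Alternatives were library sizes without TMM, DESeq2 1.42.0, rRNA genes left out, no filter, a fit of the compared groups alone, the replicate letter as a block, and each library left out.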

Additional observations from a re-analysis of the deposited data

How the results depend on the processing

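Vha100-2 fell with copper under every alternative run in all 3 kinds of cells, at log2 fold changes of -0.71 to -0.61 in parental cells, -0.56 to -0.45 in the IntS6 line and -0.54 to -0.47 in the IntS12 line. Of the 8 calls of a Vha gene, the other 5 were lost under at least 1 alternative and 0 reversed. With copper in parental cells, 4 Vha genes were called, 2 with library sizes alone, 1 in a fit of the compared groups alone, and 1 to 5 with a library left out. In the IntS6 line the count of 2 became 1 to 2 with a library left out, and with library sizes alone Vha26 was lost and Vha36-1 gained. In the IntS12 line the count of 2 became 1 with library sizes alone, 3 with DESeq2 and 1 to 2 with a library left out. With the replicate letter as a block these counts were 6, 2 and 3, and the letter changed no call in the other comparisons, where 0 Vha genes were called under every alternative run. The shares of all tested genes called under the alternatives are not given here. In the fit of the compared groups alone, 1 ATP synthase gene was called in the IntS6 line against parental cells with copper, instead of 8, and 2 instead of 5 with copper in parental cells. It was 3 with library sizes alone in the former. Called lysosomal genes in that comparison of the lines numbered 1 to 5, against 2, and 4 with the block. Without the filter and in the fit of the compared groups, 2 nutrient-sensing genes were called with copper in parental cells, instead of 4. The cause of these shifts was not tested. Fits of fewer libraries have fewer residual degrees of freedom, and what that contributed was not tested either. Depth limits VhaM9.7-c and Vha68-1, with standard errors of 0.17 and 0.14 with copper in parental cells.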
